A study of Mus musculus with 4 samples.

Results

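Adamdec1 lamina propria fibroblasts were the collagen-producing cells of the mouse small intestinal lamina propria whose droplet barcodes carried the metalloprotease-like transcript Adamdec1. Members were chosen by their UMI counts. A barcode was taken when it held at least 500 unique molecular identifiers (UMIs, each standing for 1 captured transcript), 200 to 2500 genes and no more than 15% mitochondrial UMIs, when Col1a1, Col1a2, Col3a1 and Dcn together gave at least 6 UMIs and Adamdec1 at least 2, and when the muscle genes Des, Myh11 and Actg2 gave no more than 2 and the T cell receptor complex genes Cd3e, Cd3d, Cd3g, Trac and Trbc2 no more than 1. This rule was met by 9359 of 60396 barcodes within the quality limits. Because these UMIs chose the members, the levels of these genes and the differences from barcodes outside the rule are given as a description with no test.

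Transcripts were counted per cell in lamina propria preparations of the small intestine from WT and A20ZF7 mice of 12 weeks. A20ZF7 mice carry knock-in point mutations in the seventh zinc finger of A20 (gene Tnfaip3), the ubiquitin-binding domain of this inhibitor of NF-kB signaling and cell death. Cells of 2 mice were pooled into 1 library per genotype after marking each animal with a hashtag antibody. The cells had first gone through a negative selection that keeps T cells and innate lymphoid cells, so the fibroblasts here were those that remained after it and their share is not their abundance in the tissue. The mutation is in every cell of the A20ZF7 mice, so an effect within fibroblasts and an effect of other cells on them cannot be told apart. With 1 library per genotype no difference between genotypes could be tested, and every 95% interval below covers counting error alone.

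Fibroblasts of the lamina propria build the collagen and proteoglycan scaffold of the villus and send Wnt, BMP and chemokine signals to the epithelium and to immune cells. Several populations are known in mouse gut, among them Adamdec1 cells of the lamina propria, Pi16 and Cd34 cells of deeper layers, some with the BMP antagonist Grem1, and Bmp-rich cells beneath the epithelium. In inflammation, fibroblasts respond to IL-17, TNF and interferon with acute-phase proteins, complement factors and chemokines.

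In the WT library 4046 of 22148 barcodes were members, a share of 18.3% (exact binomial interval 17.8 to 18.8). In the A20ZF7 library 5313 of 38248 were members, a share of 13.9% (13.5 to 14.2), and the ratio of the shares was 0.760 (0.732 to 0.789). The limit on T cell genes removed 487 WT barcodes and 2246 A20ZF7 barcodes that met every other criterion, 10.7% and 29.7% of them. Without that limit the shares were 20.5% and 19.8% and their ratio was 0.966, so the size of the difference depended largely on this criterion. Among hashtag-called barcodes the WT share was 13.7% for mouse 1 and 10.4% for mouse 2, both below the WT pool, and the ratio against the called barcodes of both mice was 1.10. With the barcodes called mouse 1 or those called mouse 2 left out and all others kept, the ratio was 0.682 and 0.700. The direction thus turned with the restriction to called barcodes, which was made on the WT side alone and kept a smaller part of the fibroblasts than of the T cells, as given below. Members held a median of 1107 UMIs in WT and 1062 in A20ZF7 and 759.5 and 719 genes, and summed to 5175525 and 6116324 UMIs over the gene identifiers common to both libraries. On this depth a gene at 3 UMIs stood at 0.580 (WT) and 0.490 (A20ZF7) UMIs per 1000000 (CPM), which is the unit of all levels below. At the edge of the rule, 376 WT and 694 A20ZF7 members had 2 Adamdec1 UMIs, while 374 and 708 barcodes that met the other criteria had 1. Of the member barcode sequences, 31 occurred in both libraries.

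The 2 WT mice were marked with the following hashtag oligonucleotides, shown because they are the only means of separating the animals within the pool.
Hashtag 7, WT mouse 1: gagtctgccagtatc
Hashtag 8, WT mouse 2: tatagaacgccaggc
Of the WT members, 964 were called mouse 1 and 385 mouse 2, 278 carried both hashtags and 2419, or 59.8%, carried neither clearly. T cell gene barcodes, here and below, met the quality limits with at least 3 UMIs of the T cell receptor complex genes and no UMI of Col1a1, Col1a2, Col3a1 or Dcn. Hashtag 7 made up 40 to 60% of the hashtag UMIs in 32.5% of members and in 13.4% of T cell gene barcodes, so the assignment was weaker in fibroblasts than in T cells. A single hashtag was called in 33.3% of members and 65.6% of T cell gene barcodes, so called WT barcodes hold a smaller share of members. The values of the 2 mice are given as values of the called barcodes alone, not as replicates, and for several genes below the WT pool lay outside both of them. The antibody files given for A20ZF7 were identical to those of WT, so the A20ZF7 mice were not separated.

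The defining markers of the label were abundant, as the rule requires, so their levels are no finding. Decorin (Dcn), a small proteoglycan of collagen fibrils, had a level of 7119 CPM among WT members and 6328 CPM among A20ZF7 members. Adamdec1 itself stood at 6467 and 5562 CPM, and the fibrillar collagen chain genes Col3a1 and Col1a2 stood at 3661 and 1762 CPM in WT and at 3042 and 1639 CPM in A20ZF7. In barcodes of 10 to 100 UMIs, which hold mainly free RNA, Dcn was 655 (WT) and 499 CPM (A20ZF7) and Adamdec1 was 473 (WT) and 330.0 CPM (A20ZF7). Markers of related fibroblasts were present. The Pi16, Cd34 or Grem1 list of 7 genes summed to 2754 (WT) and 2516 CPM (A20ZF7), led by Clec3b, with a UMI in 86.1% and 84.9% of members. The Bmp list of 8 genes summed to 799 and 570 CPM, led by Bmp4, with a UMI in 52.7% and 40.4%. Markers of enteric glia and mesothelium were near 0, at 8.12 and 18.5 CPM summed in WT and 4.90 and 3.27 CPM in A20ZF7. The pericyte list reached 957 and 705 CPM, most of it from Rgs5, a regulator of G protein signaling. The smooth muscle list of 7 genes, 3 of which the rule limits, summed to 848 and 579 CPM, led by Acta2 and below its free-RNA level of 1704 and 631 CPM. The endothelial list of 7 genes summed to 65.5 and 114 CPM, led by Pecam1, and the macrophage list of 7 genes to 72.8 and 129 CPM, led by Lyz2.

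Transcripts of other cells were present in the members and differed between the libraries. Of the T cell list, which holds 8 genes and of which the rule limits 5 to a summed 1 UMI per barcode, all were above 3 UMIs in both libraries, and their sum was 132 CPM in WT and 629 CPM in A20ZF7, led by the cytokine gene Il17a at 35.4 and 346 CPM. At least 1 UMI of this list was found in 12.3% of WT and 34.9% of A20ZF7 members. The leukocyte list of 4 genes, led by Cd52, summed to 475 and 894 CPM, against 1603 and 2308 CPM in the barcodes of 10 to 100 UMIs. The B and plasma cell list of 7 genes summed to 6462 and 8345 CPM, led by Igha at 3248 and 4280 CPM, with Ms4a1 at 0 in WT. The epithelial list of 10 genes was lower in A20ZF7, from 1472 CPM in WT, led by Fabp1, to 165 CPM in A20ZF7, with Olfm4 at 0 there. When the free-RNA profile was scaled to immunoglobulin, epithelial and pancreatic genes, it accounted for 36.5% of member UMIs in WT and 48.6% in A20ZF7. The part of these transcripts in the differences between genotypes was not tested.

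Within each library the members were set beside barcodes with the same collagen and decorin minimum, the same muscle and T cell limits and no Adamdec1 UMI, but with at least 2 UMIs of Pi16, Cd34 and Grem1, of which there were 375 in WT and 457 in A20ZF7. Adamdec1 fibroblasts had higher levels of several secreted and adhesion genes than these barcodes in both libraries. Hpse2, a heparanase-family protein, was 1159 CPM in WT members and 69.4 CPM in the Pi16, Cd34 or Grem1 barcodes, and 1179 against 77.1 CPM in A20ZF7. The matrix metalloprotease gene Mmp10 was 608 CPM in WT members against 1 UMI in all comparator barcodes, a ratio of 298 with an interval of 53.4 to 11772, and 464 CPM against 6 UMIs in A20ZF7. Hmcn1, an extracellular protein of the hemicentin family, was 11.1 times the comparator level in WT and 9.40 times in A20ZF7. Tenascin C (Tnc), an adhesion-modulating matrix glycoprotein, was 693 against 34.7 CPM in WT and 423 against 31.6 CPM in A20ZF7.
Retinoid enzymes were among these genes. Aldh1a3, which makes retinoic acid from retinal, was 16.4 and 9.89 times the comparator level, and Rdh10, which makes retinal from retinol, was 13.4 and 6.01 times. The collagen VI chain gene Col6a5, the adhesion receptor Adgrl3, Srpx2, Scube1, Fhl2, Fblim1, Sept4, Dach1 and Igfbp3 completed the 15 with the highest ratios in both libraries. Lower in the members than in the comparator were the metallothionein Mt1, at 258 against 2171 CPM in WT and 317 against 1391 CPM in A20ZF7, and the immediate early genes Fos, Fosb, Egr1, Ier2, Zfp36 and Klf4. Fos, for example, was 434 against 2008 CPM in WT, a ratio of 0.216, and 0.309 in A20ZF7. Col14a1, a fibril-associated collagen, was also lower in the members, at ratios of 0.347 and 0.367.

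**Figure D1:**
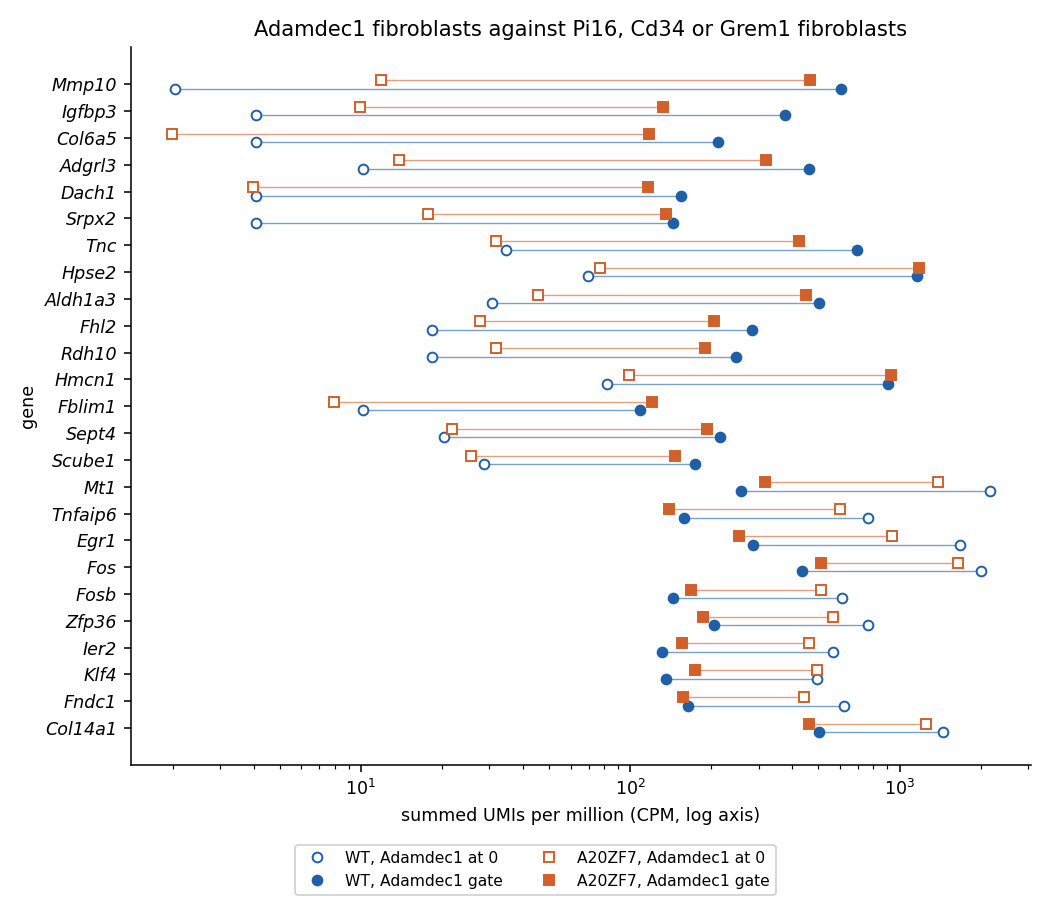
Levels in CPM (log axis) of the 15 genes with the highest and the 10 with the lowest member to comparator ratios, with filled symbols for Adamdec1 fibroblasts and open symbols for Pi16, Cd34 or Grem1 barcodes without Adamdec1, circles for WT and squares for A20ZF7. In both libraries the filled symbols lie far to the right for Mmp10 and Hpse2 and to the left for Mt1 and Fos.

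Bmp barcodes without Adamdec1 were few, 71 in WT and 26 in A20ZF7, and several ratios against them rested on 1 to 3 comparator UMIs. Several genes that separated the members from the Pi16, Cd34 or Grem1 barcodes were also abundant in these Bmp barcodes. Hpse2 was 945 CPM in WT and 1352 CPM in A20ZF7 there, Tnc 904 CPM in WT and 451 CPM in A20ZF7, Adgrl3 654 CPM in WT and 488 CPM in A20ZF7 and Rdh10 249 CPM in WT and 300.4 CPM in A20ZF7. Aldh1a3 was 229 CPM in WT and 376 CPM in A20ZF7, and Mmp10 was 104 CPM in WT and 676 CPM in A20ZF7, on 10 and 18 UMIs. Against the member levels, Hpse2, Tnc, Adgrl3 and Rdh10 were within 2-fold in both libraries, whereas Aldh1a3 and Mmp10 were lower in the WT Bmp barcodes by over 2-fold and not in A20ZF7. Members were higher than the Bmp barcodes in Ncam1, a neural cell adhesion molecule, at 483 against 72.7 CPM in WT, and in Mfap4, a microfibril protein, at 789 against 135 CPM. In A20ZF7 the comparator held 2 UMIs of Ncam1 and 1 of Mfap4, and the ratios were 4.83 (interval 1.33 to 39.9) and 13.5 (interval 2.42 to 532). Members were lower in Pdgfra, the PDGF receptor that is high in subepithelial cells, at 409.6 against 2389 CPM in WT and 364 against 1652 CPM in A20ZF7. The smooth muscle gene Tagln was likewise 0.155 and 0.195 of the Bmp barcode level.

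The members were not uniform. After each barcode was thinned to 500 UMIs, 20.1% of WT members had a UMI of Pi16, Cd34 or Grem1 and 25.7% a UMI of Bmp3, Bmp4, Bmp5 or Bmp7, and 4.48% had both, where 5.15% would if the 2 were unrelated. In A20ZF7 these shares were 19.0%, 19.3% and 3.06%, against 3.65%. Members with Bmp UMIs alone were compared with those with Pi16, Cd34 or Grem1 UMIs alone, as a description of how other genes sorted with these. The chemokine gene Cxcl14 was 245 CPM in the Bmp members of WT and 19.0 CPM in the others, and 101 against 12.0 CPM in A20ZF7. Sox6, a transcription factor, Mmp10, Gja1, which encodes a gap junction connexin, and Igfbp3, which binds insulin-like growth factors, sorted the same way, Mmp10 at 5.54 and 4.67 times in the 2 libraries. On the other side stood the elastic fiber genes Mfap5, Fbln1 and Eln and the Wnt antagonist Dkk2. Fbln1 was 1784 CPM in the Pi16, Cd34 or Grem1 members of WT and 744 CPM in the Bmp members, and 1471 against 599 CPM in A20ZF7.

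The next comparison set the members of A20ZF7 mice beside those of WT mice. A gene was assessed when the higher library had 100 CPM and 20 UMIs or more. Of 1952 genes assessed, 88 were at least 2-fold higher in A20ZF7 members (4.51%) and 47 at least 2-fold lower (2.41%). The median log2 ratio of all genes assessed was -0.01, and 1817 genes, or 93.1%, were within 2-fold. Of the genes assessed, 225 reached 100 CPM in A20ZF7 alone and 187 in WT alone, and this filter raises the count and the size of differences over any list that holds such genes, so the list values below are descriptions. Of the 88, 16 were at least 2 times their own level in the A20ZF7 barcodes of 10 to 100 UMIs. The others included lymphocyte genes such as Il17a, Gzma, Ctla4, Ccl5 and Ptprc, and 21 of the 88 were also at least 2-fold higher in T cell gene barcodes. Of the 47 lower genes, 28 were at least 2 times the WT free-RNA level, 24 were also 2-fold lower in T cell gene barcodes, and these last included the epithelial genes Fabp1, Rbp2, Apoa1 and Pigr. The genes of the rule that mark fibroblasts had ratios of 0.889 for Dcn, 0.860 for Adamdec1, 0.831 for Col3a1, 0.930 for Col1a2 and 0.948 for Col1a1. After subtraction of the scaled free-RNA profile, 46 genes were 2-fold higher and 97 lower. With the WT side restricted to called barcodes of both mice, 49 were higher, 42 of the 88 and 37 of the 47 kept a 2-fold difference, and with the barcodes called for 1 mouse left out and all others kept, 105 to 114 were. Between the 2 WT mice, 29 genes were 2-fold apart in either direction.

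**Figure D2:**
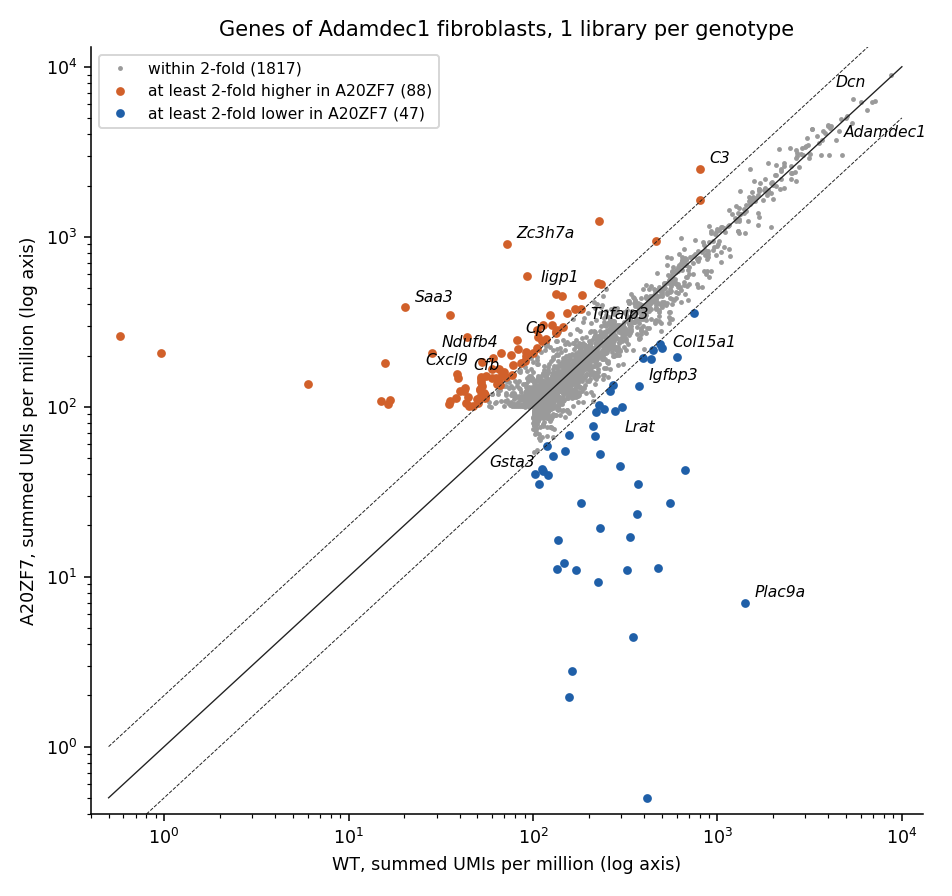
Summed CPM of each of the 1952 genes assessed in Adamdec1 fibroblasts, WT on the horizontal and A20ZF7 on the vertical log axis, with the line of equality and dashed lines at 2-fold. Orange points are the 88 genes at least 2-fold higher in A20ZF7, blue the 47 at least 2-fold lower, and 1 gene with 0 UMIs in A20ZF7 is drawn at 0.5 CPM.

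Acute-phase and complement genes were among the 10 with the highest ratios of those that passed 2 conditions. Their level in A20ZF7 members had to be at least 2 times that in A20ZF7 free RNA and above both WT mice. Positions against free RNA and the mice were thus fixed by the choice and are no support. Genes such as Il17a did not pass and were not ranked. Saa3, a serum amyloid A protein that tissue cells make in inflammation, was 20.3 CPM in WT members and 383 CPM in A20ZF7 members, a ratio of 18.9 (95% interval 15.5 to 23.2). It was 24.5 and 21.5 CPM in the 2 WT mice, and an A20ZF7 level above both was a condition of its choice. After thinning to 500 UMIs, a Saa3 UMI was seen in 0.495% (0.302 to 0.763) of WT and 6.85% (6.18 to 7.56) of A20ZF7 members, against 0 and 0.260% of T cell gene barcodes. That class leaves out every barcode with a collagen or Dcn UMI, so low shares of stromal genes in it, here and below, are in part built in. The unthinned shares in members were 0.840% and 9.86%, and median depths were 1107 and 1062 UMIs in members and 932 and 1149 in T cell gene barcodes. Free RNA held Saa3 at 1.06 (WT) and 49.8 CPM (A20ZF7). In Pi16, Cd34 or Grem1 barcodes without Adamdec1, Saa3 had 0 UMIs in WT and 138 in A20ZF7 (273 CPM), and in barcodes outside the rule its ratio was 45.7. Here and below, these are barcodes within the quality limits that failed the collagen, muscle or T cell criterion. Barcodes that failed the Adamdec1 criterion alone are not among them. They include the 487 WT and 2246 A20ZF7 barcodes removed by the T cell limit, and held Adamdec1 at 556 (WT) and 763 CPM (A20ZF7). A minority of A20ZF7 members thus had a detected Saa3 transcript at this depth.

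C3, the central complement component, was 805 CPM in WT and 2511 CPM in A20ZF7 members, a ratio of 3.12 (95% interval 3.02 to 3.23). The WT mice stood at 713 and 734 CPM, and free RNA at 88.2 (WT) and 195 CPM (A20ZF7). A C3 UMI was seen in 27.3% (25.9 to 28.7) of thinned WT members and in 64.8% (63.4 to 66.0) of thinned A20ZF7 members, against 0.371% and 0.895% of T cell gene barcodes. Unthinned, these member shares were 42.6% and 82.5%. In Pi16, Cd34 or Grem1 barcodes without Adamdec1, C3 was 2748 and 4822 CPM, a ratio of 1.75, on a higher level in both genotypes. Factor B (Cfb), which forms the alternative pathway convertase with C3, was 52.6 and 139.6 CPM in the members, a ratio of 2.66 (95% interval 2.32 to 3.06), against 48.3 and 54.5 CPM in the WT mice and 12.1 (WT) and 8.30 CPM (A20ZF7) of free RNA. Ceruloplasmin (Cp), a copper-carrying acute-phase oxidase, was 82.3 and 245 CPM, a ratio of 2.98 (95% interval 2.68 to 3.33), with 77.3 and 74.3 CPM in the WT mice.
Over the complement list, 9 of 15 genes were assessed, 1 of them (Cfb) through its A20ZF7 level alone, 2 were 2-fold higher and none lower, against 4.51% and 2.41% of all genes assessed, and the median log2 ratio was 0.36, against 0.85 in barcodes outside the rule. C3 itself had a ratio of 4.80 in those barcodes and 3.63 in T cell gene barcodes, above that in the members. C1ra, C1s1 and C4b of the classical pathway had ratios of 1.38, 1.29 and 1.28. Serping1, the inhibitor of C1 proteases, was 1813 and 2175 CPM, a ratio of 1.20.

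The promoters of Saa3 and C3 are shown because these acute-phase transcripts are among the 10 highest ratios chosen as above. They run from 250 bases before to 50 after the transcription start in RefSeq on GRCm38.p6, both on the minus strand, written 5′ to 3′ in the sense of the gene, at chr7:46715627-46715926 and chr17:57228087-57228386. Capitals mark matches, on either strand, to the interferon regulatory factor element, 2 GAAA runs spaced by 2 bases, or the C/EBP element TTNNGNAA, and neighboring or overlapping matches run together. The motifs were chosen after the levels were seen, and a match is a description of the letters alone.
Saa3: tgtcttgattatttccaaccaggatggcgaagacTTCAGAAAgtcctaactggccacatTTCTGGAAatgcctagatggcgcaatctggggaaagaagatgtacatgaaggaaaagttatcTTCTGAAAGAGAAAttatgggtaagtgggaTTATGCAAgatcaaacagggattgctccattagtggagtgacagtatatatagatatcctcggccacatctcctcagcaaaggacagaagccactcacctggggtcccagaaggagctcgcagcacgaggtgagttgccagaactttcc
C3: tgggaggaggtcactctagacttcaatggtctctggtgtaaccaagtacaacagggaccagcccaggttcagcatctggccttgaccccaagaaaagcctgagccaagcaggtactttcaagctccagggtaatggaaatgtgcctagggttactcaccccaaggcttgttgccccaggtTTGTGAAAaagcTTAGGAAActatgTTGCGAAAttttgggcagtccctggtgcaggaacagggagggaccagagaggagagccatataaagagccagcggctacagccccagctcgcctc
The Saa3 window held 1 match to the interferon element and 4 to the C/EBP element, and the C3 window 0 and 3. Neither held the NF-kB consensus in this window. Of 32851 windows of the same length, 3.44% held the interferon element, 40.7% the C/EBP element and 8.46% the NF-kB consensus. Of these 10 genes, 8 had a promoter entry, and the windows shown held the most matches. Among those not shown, each window of the acute-phase gene Cp held 1 C/EBP match and the Cxcl9 window 2. The windows of Zc3h7a, Ndufb4, Tap1 and Ly6c1 held none of these motifs.

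Several interferon-responsive and antigen presentation genes had higher levels in A20ZF7 members. Of 31 genes on this list 18 were assessed, 5 of them through their A20ZF7 level alone, 4 were at least 2-fold higher and none lower, against 4.51% and 2.41% of all genes assessed. Their median log2 ratio was 0.56, against 0.31 in barcodes outside the rule and 0.22 in free RNA. Iigp1, an interferon-inducible GTPase of intracellular defense, was 133 CPM in WT and 462 CPM in A20ZF7 members, a ratio of 3.47 (95% interval 3.19 to 3.77). The WT mice stood at 152 and 135 CPM and free RNA at 54.9 (WT) and 129 CPM (A20ZF7). An Iigp1 UMI was seen in 5.81% (5.11 to 6.58) and 19.4% (18.3 to 20.5) of thinned members, against 2.04% and 3.12% of T cell gene barcodes.
Tap1, which carries peptides to class I molecules, was 51.6 and 126 CPM, a ratio of 2.45 (95% interval 2.13 to 2.82). The class I chain genes followed at smaller ratios, with H2-K1 at 1504 and 2512 CPM, H2-D1 at a ratio of 1.34 and B2m, their common light chain, at 2162 and 3261 CPM. The ratio of H2-K1 was 1.02 in T cell gene barcodes and 2.10 in Pi16, Cd34 or Grem1 barcodes, where that of B2m was 1.62. The immunoproteasome subunits Psmb8 and Psmb9 had ratios of 1.58 and 1.78, with 1.04 and 1.04 in T cell gene barcodes and 2.19 and 2.39 in Pi16, Cd34 or Grem1 barcodes. Ifitm1, a membrane protein of antiviral defense, was 804 and 1646 CPM, while its relatives Ifitm2 and Ifitm3 had ratios of 0.963 and 1.13.

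Chemokine genes differed in both directions. Cxcl9, which draws CXCR3 lymphocytes and is induced by interferon gamma, was 59.7 CPM in WT members and 167 CPM in A20ZF7 members, a ratio of 2.80 (95% interval 2.46 to 3.19), although the 2 WT mice were at 76.5 and 33.0 CPM. Its UMIs were found in 1.04% (0.750 to 1.40) and 4.57% (4.02 to 5.16) of thinned members, against 0.668% and 0.563% of T cell gene barcodes, and unthinned in 1.85% and 7.17% of members. Cxcl13, the B cell attractant of lymphoid stroma, was 63.4 and 106 CPM. Ccl11 (eotaxin), which draws eosinophils, was lower in A20ZF7, within 2-fold, at 1171 and 772 CPM, as was Cxcl12, the CXCR4 ligand, at 869 and 605 CPM. Cxcl14 was 157 and 68.0 CPM, a ratio of 0.434 (95% interval 0.385 to 0.489), with 166 and 193 CPM in the WT mice, and 0.516 after subtraction of the scaled free-RNA profile. Of 19 chemokine genes 6 were assessed, 2 through A20ZF7 and 1 through WT alone. Of these 6, 1 was higher and 1 lower, against 4.51% and 2.41% of all genes assessed, and their median log2 ratio was -0.43.
Among cytokine receptor and lymphoid stroma genes, 15 of 44 were assessed, 6 of them through A20ZF7 and 2 through WT alone. Of the 15, 3 were higher (Saa3, Ly6a and Ly6c1) and none lower, against 4.51% and 2.41% of all genes assessed, and the median log2 ratio was 0.20. Ly6a, which encodes the surface protein Sca1, was 466 and 943 CPM, and Ly6c1, a related surface protein, 54.5 and 120.5 CPM. Their ratios were 2.02 and 2.21, and 1.93 and 1.82 against called WT barcodes of both mice, so that neither was past 2-fold there. Il33, an alarmin of stromal nuclei, was 123 and 76.2 CPM, a ratio of 0.620 (95% interval 0.549 to 0.700). Il1r1, the IL-1 receptor, Tnfrsf1a, the TNF receptor, and Vcam1, an adhesion molecule, had ratios of 0.933, 1.07 and 1.02.

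**Figure D3:**
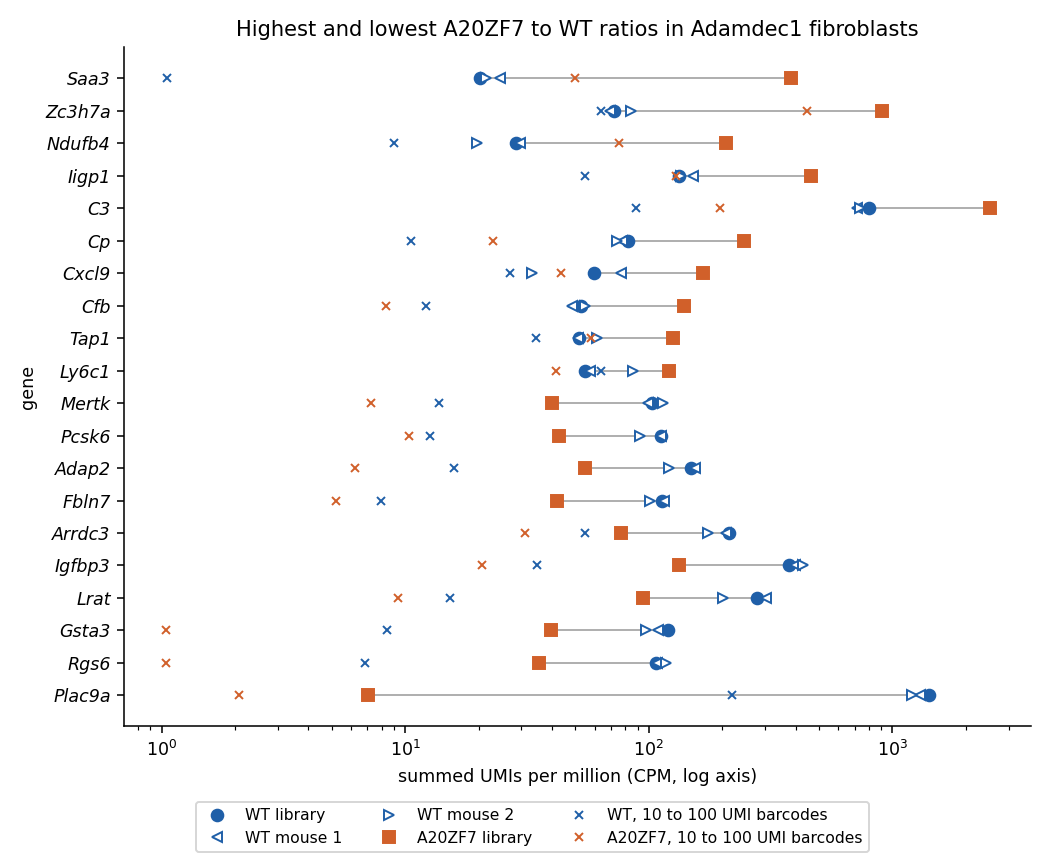
Levels in CPM (log axis) of the 10 highest and 10 lowest A20ZF7 to WT ratios in Adamdec1 fibroblasts, with the WT library (filled circle), both WT mice (open triangles), the A20ZF7 library (square) and barcodes of 10 to 100 UMIs (crosses). Ranked were only genes at least 2 times free RNA in the higher genotype and with A20ZF7 beyond both WT mice. For Saa3 the A20ZF7 square stands at 383 CPM and all WT symbols lie between 1.06 and 24.5 CPM.

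Tnfaip3 itself, whose zinc finger is mutated, was 185 CPM in WT members and 452 CPM in A20ZF7 members, a ratio of 2.45 (95% interval 2.27 to 2.64). The WT mice stood at 262 and 318 CPM, and free RNA at 561 (WT) and 986 CPM (A20ZF7), above the members in both libraries. Against called WT barcodes of both mice its ratio was 1.62, below 2. In T cell gene barcodes, where it is abundant, its ratio was 0.985, and in barcodes outside the rule 1.31. In Pi16, Cd34 or Grem1 barcodes, Bmp barcodes and smooth muscle gene barcodes its ratios were 2.10, 2.85 and 2.12, that of the Bmp barcodes on 19 (WT) and 15 UMIs (A20ZF7). Point mutations need not alter the amount of transcript, so this level does not check the genotype label. Of 26 A20 and NF-kB feedback genes, 7 were assessed, 4 of them (Rel, Traf3, Birc3 and Nfkbiz) through their A20ZF7 level alone. Of the 7, 3 (Tnfaip3, Rel and Traf3) were 2-fold higher and none lower, against 4.51% and 2.41% of all genes assessed. Against called WT barcodes of both mice Rel and Traf3 had ratios of 1.57 and 1.96, so none of the 3 was past 2-fold there. The median log2 ratio of the 7 was 0.94, a value that the filter lifts, and it was 0.80 over the 5 genes with a mean of 100 CPM over both libraries, a selection chosen after seeing the data. In free RNA the median of the 7 was 1.14. Tnfaip3, Rel and Traf3 each stood higher in A20ZF7 free RNA than in A20ZF7 members. Nfkbia, the NF-kB inhibitor that NF-kB itself induces, was 249 and 347 CPM against 295 (WT) and 403 CPM (A20ZF7), and the part of free RNA in these genes' ratios was not tested.

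Lrat, Igfbp3 and Aldh1a1 were among the genes at least 2-fold lower in A20ZF7 members. Lrat, which esterifies retinol for storage, was 278 CPM in WT and 94.3 CPM in A20ZF7, a ratio of 0.340 (95% interval 0.308 to 0.374), with 302 and 201 CPM in the WT mice. Aldh1a1, which makes retinoic acid, was 219 and 93.4 CPM, a ratio of 0.427 (95% interval 0.386 to 0.473), but its ratio was 0.144 in T cell gene barcodes and 0.351 in barcodes outside the rule, and after subtraction of the free-RNA profile it was 0.524 in the members. Aldh1a3 was 503 and 449.8 CPM, within 2-fold. Of 23 retinoid and lipid genes, a list without Lrat, 9 were assessed, 1 of them (Aldh1a1) through WT alone. That gene was 2-fold lower and none was higher, against 2.41% and 4.51% of all genes assessed. The median log2 ratio was -0.18.
Igfbp3, which binds insulin-like growth factors, was 377 CPM in WT and 133 CPM in A20ZF7, a ratio of 0.352 (95% interval 0.324 to 0.382). Its WT mice stood at 398 and 427 CPM, and an A20ZF7 level below both was a condition of its choice among the lowest ratios. Its thinned share of members was 14.4% (13.3 to 15.5) and 5.95% (5.33 to 6.63), against 0.223% and 0.433% of T cell gene barcodes. Both Bmp members and Pi16, Cd34 or Grem1 members held less of it in A20ZF7, at 153 and 52.6 CPM against 510.5 and 168 CPM in WT. Fbln7, an adhesive fibulin, was 113 and 41.9 CPM, and Mertk, the receptor tyrosine kinase of apoptotic cell uptake, 103 and 40.1 CPM. Gsta3, a glutathione transferase, Rgs6, a regulator of G protein signaling, Arrdc3, an arrestin-domain protein, Adap2 and the proprotein convertase gene Pcsk6 had ratios of 0.330, 0.329, 0.360, 0.370 and 0.382. In the Pi16, Cd34 or Grem1 barcodes without Adamdec1, Rgs6, Fbln7, Mertk and Lrat had ratios of 0.331, 0.382, 0.404 and 0.404. Gsta3 had a ratio of 0.699 there, within 2-fold, Arrdc3 and Pcsk6 0.427 and 0.440, and Adap2 0.969, on only 6.12 and 5.93 CPM. In the few Bmp barcodes Mertk and Lrat had ratios of 1.21 and 0.904, on 6 and 8 UMIs in WT and 2 each in A20ZF7.

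Of 13 collagen genes assessed 12 were within 2-fold, a share of 92.3% near the 93.1% of all genes assessed, and 1 was lower, Col15a1, a basement membrane zone collagen, at 489 and 235 CPM, with a ratio of 0.481 (95% interval 0.450 to 0.513). The WT mice stood at 431 and 401 CPM, and the Col15a1 ratio was 0.558 against called WT barcodes of both mice and 0.569 after subtraction of the free-RNA profile, within 2-fold in both. The collagen VI genes Col6a1, Col6a2 and Col6a3 had ratios of 0.796, 0.834 and 0.864, and the list median log2 ratio was -0.33. Of 30 matrix glycoprotein and proteoglycan genes assessed 1 was lower (Igfbp3) and none higher, with a median of -0.25. Of 10 protease and inhibitor genes assessed none passed 2-fold, with a median of -0.21. The shares within 2-fold were 96.7% and 100%, against 93.1% of all genes assessed. Timp2, an inhibitor of metalloproteases, stood at 462 and 380.3 CPM, while Adamts5, an aggrecan-cleaving protease, at 53.9 and 26.5 CPM, and the inhibitor gene Timp1, at 15.8 and 39.4 CPM, were below the level at which a gene was assessed. Igfbp4 and Igfbp7, relatives of Igfbp3, were 536 and 3154 CPM in WT and 763 and 2904 CPM in A20ZF7, within 2-fold. Bgn (biglycan) stood at 1595 and 1611 CPM, and Sparc, a collagen-binding matrix protein, at 2618 and 2413 CPM. Gsn (gelsolin), an actin-severing protein and the most abundant gene of the fibroblast identity list, was 4764 and 3009 CPM, a ratio of 0.632 (95% interval 0.620 to 0.644). That list had 14 genes assessed, none past 2-fold and a median of -0.28, against 0.38 in barcodes outside the rule. Over the alternatives its median lay between -0.35 and -0.03.
Among Wnt, BMP and growth factor genes, 12 of 40 were assessed, 1 of them through A20ZF7 and 2 through WT alone. Of the 12, 91.7% were within 2-fold, near the 93.1% of all genes assessed. The EGF receptor ligand Areg was 2-fold higher, at 65.3 and 167 CPM against 144 (WT) and 340.4 CPM (A20ZF7) in free RNA, and none was lower. After subtraction of the scaled free-RNA profile the Areg ratio was 0.125, in the opposite direction. The Wnt antagonist Sfrp1 was 1557 and 1690 CPM and Bmp4 412 and 325 CPM, and the list median was -0.22. Of 23 immediate early and heat shock genes assessed 1 was lower, the matricellular gene Ccn2 at 128 and 51.2 CPM, and none higher. The share within 2-fold was 95.7%, near the 93.1% of all genes assessed. The Ccn2 ratio was 0.399, and 0.507 against called WT barcodes of both mice, just within 2-fold. The list had 2 genes assessed through A20ZF7 and 1 through WT alone, with a median of 0.22. None of 7 glycolysis and growth genes, 2 replication genes or 7 contractile genes passed 2-fold, and their medians were 0.05, 0.58 and -0.52.

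**Figure D4:**
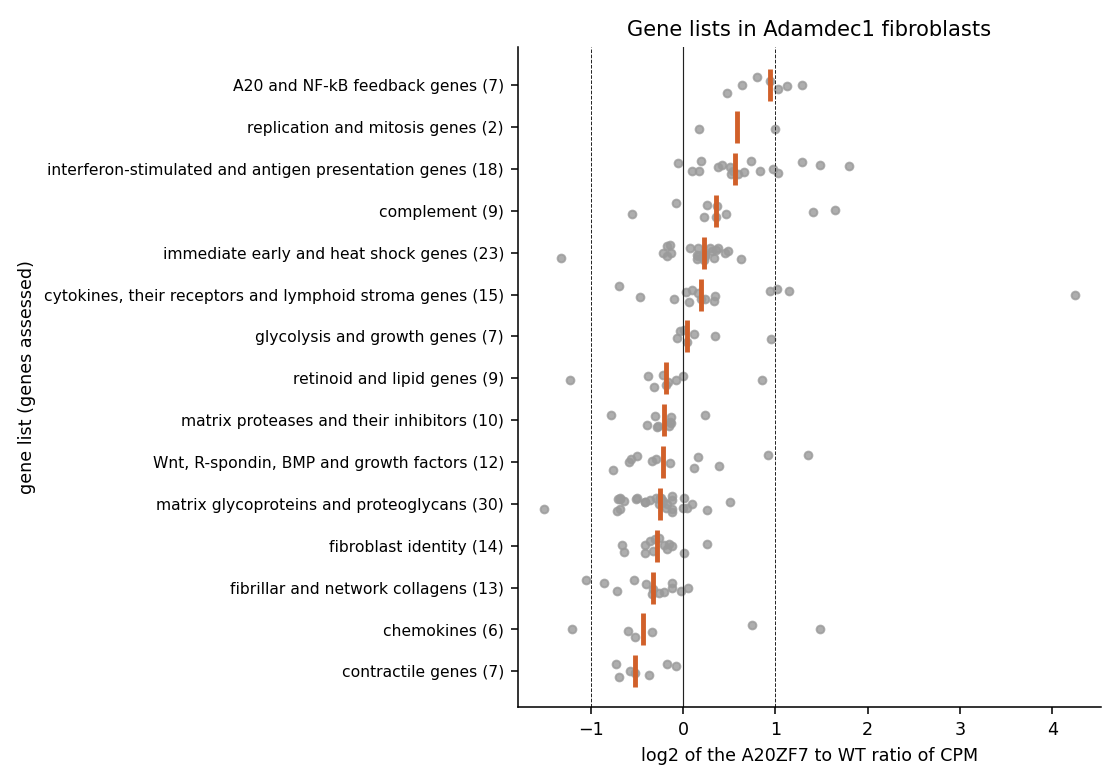
The log2 ratio of A20ZF7 to WT CPM for each assessed gene (gray points) of 15 gene lists in Adamdec1 fibroblasts, with the list median (orange bar), the number assessed in parentheses and dashed lines at 2-fold. The interferon list has its median at 0.56 and the collagen list at -0.33, and the lone point at right is Saa3.

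Several ratios were also large in other classes of barcode. Zc3h7a, a zinc finger protein gene, was 72.3 CPM in WT and 907 CPM in A20ZF7 members, and Ndufb4, a subunit of mitochondrial complex I, 28.4 and 206 CPM. In T cell gene barcodes their ratios were 4.56 and 8.68, and in free RNA 6.95 and 8.44. Plac9a was 1415 CPM in WT and 7.03 CPM in A20ZF7 members, with a ratio of 0.00247 in T cell gene barcodes. The A20ZF7 gene list holds its near copy Plac9b and the WT list does not, so reads of the pair may be assigned differently and its value is uncertain. The WT and A20ZF7 files list 33696 and 32285 features, of which 31950 are common, and the part of this difference in other library-wide ratios was not tested.

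Surface antibodies, counted in the same WT barcodes, gave a readout that the rule did not use. Adamdec1 fibroblasts carried more antibody to CD54 (ICAM-1), the ligand of leukocyte integrins, with a median of 49.7 per 10000 antibody UMIs of a barcode, against 16.8 in T cell gene barcodes and 12.4 in smooth muscle gene barcodes. The interquartile range of members was 32.0 to 74.7, above the median of the T cell gene barcodes. The medians were 48.6 and 49.9 in mouse 1 and mouse 2, and 51.3 in Pi16, Cd34 or Grem1 barcodes. CD39, an ectoenzyme that removes extracellular ATP, was 276 in members, 182 in Pi16, Cd34 or Grem1 barcodes, 148 in Bmp barcodes and 320.4 in smooth muscle gene barcodes, against 163 in T cell gene barcodes. CD63, a tetraspanin of endosomes, was 31.3 against 19.6, and CD55, which shields cells from complement, 19.0 against 13.2. LAMP1, CD61, Sca1 and CD1d followed with ratios to T cell gene barcodes of 1.32, 1.29, 1.29 and 1.26. CD49a had a ratio of 1.17, near that of an isotype control, and stood at 131 in members, 183 in Bmp barcodes and 393 in smooth muscle gene barcodes. Sca1 was higher in the Pi16, Cd34 or Grem1 barcodes, at 29.7 against 18.4 in members, as was its gene Ly6a at 1285 against 466 CPM.
The isotype control IgG2b had a ratio of 1.11, IgG2a at 1.03 and IgG1 at 0.983. In the other direction, CD5, CD4, CD43 and one of the antibodies labelled CD45 were lower in members, CD43 at 7.27 against 15.1 and CD45 at 10.9 against 22.3. The panel lists CD90 antibodies under separate names, and that listed as CD90pt2 was 12.7 against 91.3, whereas that listed as CD90 was 40.5 against 39.4. Median antibody depth was 1800.5 UMIs in members and 1819 in T cell gene barcodes. In the WT low-count barcodes, which hold mainly free RNA, it was 1378 antibody UMIs, so much of this depth was also reached there. The part of this background in the antibody levels and ratios was not tested.

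**Figure D5:**
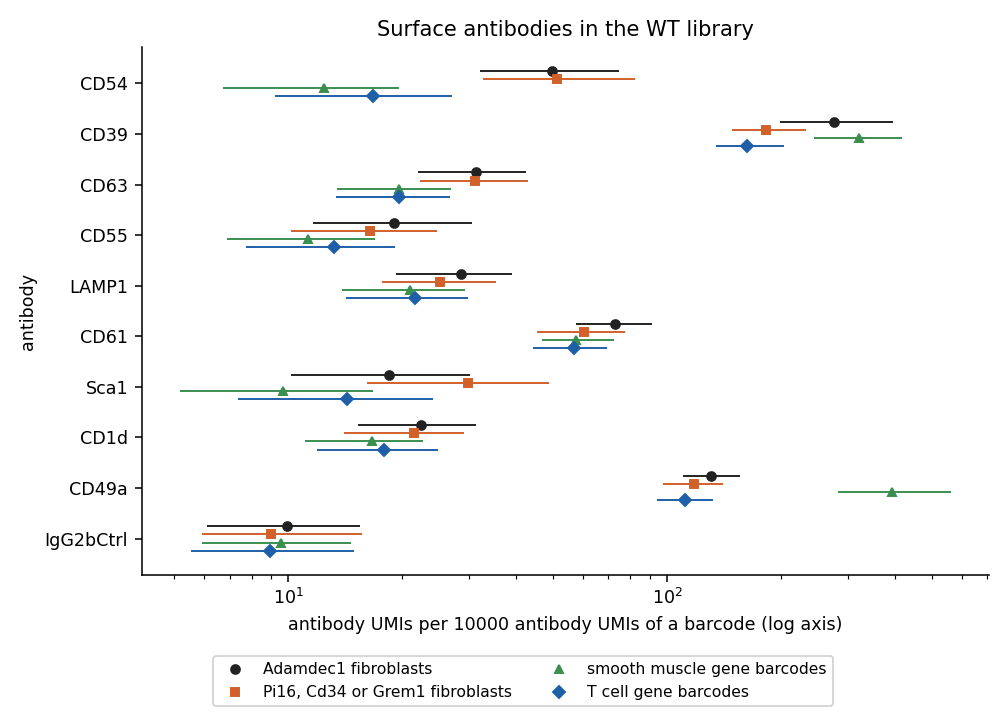
Median (symbol) and interquartile range over barcodes (line) of 10 surface antibodies in the WT library, in antibody UMIs per 10000 of a barcode on a log axis, for Adamdec1 fibroblasts and 3 other classes. CD54 separates both fibroblast classes (medians 49.7 and 51.3) from T cell gene barcodes (16.8), and IgG2bCtrl is an isotype control.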

How the data were processed

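The authors generated 5′ single-cell RNA-Seq libraries and deposited raw UMI counts per gene and barcode as count matrices (unit: counts, not normalized). The submitters' processing notes name Cell Ranger 7.1, R 4.3.3, Seurat 4.3 and mm10, whereas the gene expression file headers give version 8.0.0. The deposited antibody counts were used for WT only, because the 3 A20ZF7 antibody files were identical to them. All barcodes of the matrices entered, and members were chosen by UMI counts of gene identifiers, as described above. The members and the gene lists were chosen with earlier results of these data known. Counts were summed over members and divided by their total over 31950 shared identifiers (CPM), with exact Poisson, conditional and Clopper-Pearson 95% intervals. No doublet caller was run on the transcripts, and WT barcodes with both hashtags were kept. Hashtags were called with HTODemux of Seurat 5.3.0 (quantile 0.99). Named genes were those of the rule and Tnfaip3; in each list the 3 most abundant and the extremes; the 10 highest and 10 lowest ratios at least 2 times free RNA in the higher genotype and beyond both WT mice; and the leading genes against the comparators and antibodies against T cell gene barcodes. Mitochondrial, ribosomal, immunoglobulin, T cell receptor, sex-linked, Gm and Rik genes were left out of the ranked parts. Further genes in the text were chosen after their values were seen, and some members of the lists are not reported here. Calculations ran in Python 3.11.15 with scipy 1.17.1, and the ratio calculation was checked on simulated counts.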

Additional observations from a re-analysis of the deposited data

Results flagged for a closer look

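Gene identifiers listed for 1 library alone lay outside every comparison above. They held 2.91% of the UMIs of A20ZF7 members and 0.311% of those of WT members. Most of the A20ZF7 share was Gm42418, a gene model at 27676 CPM of all member UMIs and 165051 CPM in barcodes of 10 to 100 UMIs, which the WT list does not hold. AY036118 followed at 688 CPM, and Plac9b was at 122 CPM. The largest such gene of the WT list was Gm56906 at 171 CPM. These counts could not be compared between genotypes.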

How the results depend on the processing

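The ratio of the shares moved below 0.760 with a 1000 UMI minimum (0.647), Adamdec1 of at least 3 (0.729), a collagen sum of at least 10 (0.647), the rule applied at 500 thinned UMIs (0.676), members with Ptprc or Epcam UMIs left out (0.646), WT barcodes with both hashtags left out (0.727) and, chosen after seeing the data, members with any leukocyte marker UMI left out (0.407), and it was 0.966 with no T cell gene limit, also chosen after seeing the data. With the WT side restricted to barcodes called for 1 mouse, which also leaves out the uncalled and double-hashtag barcodes, it ranged from 1.01 to 1.34, against 1.10 for called barcodes of both mice, and it was 0.682 and 0.700 with the barcodes called mouse 1 or mouse 2 left out and all others kept (these 3 settings were chosen after seeing the data). The count of higher genes was 46 after subtraction of the free-RNA profile, 162 at 50 CPM and 10 UMIs, 975 with 10 UMIs and no CPM minimum, 180 at 1.5-fold, 659 by intervals beyond 1 and 55 without leukocyte marker UMIs, and ranged from 46 to 58 with barcodes called for 1 WT mouse alone, against 49 with those of both. The count of lower genes was 28 under the thinned rule, 97 after subtraction, 91 at 50 CPM and 10 UMIs, 886 with no CPM minimum, 109 at 1.5-fold, 700 by intervals and 23 without genes past 2-fold in T cell gene barcodes, which was chosen after seeing the data. Areg reversed to 0.125 after subtraction. Over the 18 settings that gave ratios for these genes, they ranged from 15.6 to 38.9 for Saa3, 2.56 to 3.37 for Cfb, 3.03 to 4.22 for Iigp1, 0.310 to 0.403 for Igfbp3 and 0.313 to 0.469 for Lrat. Ly6c1 (1.40 to 3.84) was below 2 with the 1000 UMI minimum and against called barcodes of both mice (1.82). Tnfaip3 (1.42 to 2.87) was below 2 against called barcodes of both mice (1.62), with no value after subtraction. Against called barcodes of both mice, the 2-fold difference was also lost for Ly6a (1.93), Rel (1.57), Traf3 (1.96), Col15a1 (0.558) and Ccn2 (0.507), and after subtraction for Col15a1 (0.569), Aldh1a1 (0.524) and Cxcl14 (0.516). With genes taken at a mean of 100 CPM over both libraries, chosen after seeing the data, 55 were higher and 33 lower. The median of the interferon list lay between 0.52 and 0.98, while the medians of the Wnt and BMP, protease, retinoid, contractile, glycolysis, replication and immediate early lists changed sign under at least 1 setting, with extremes of 0.08, 0.12, 0.12, 0.25, -0.48, -0.40 and -0.05. The cause of these movements was not tested. No paired analysis was possible because there was 1 library per genotype. Depth limited single members to a median of 1107 or 1062 UMIs, so absence of a gene in a barcode is not absence from the cell.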
